A study of Rattus norvegicus with 36 samples.

Results

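Rats carry fat around the aorta, and this account follows 36 genes of fat cells and of lipid synthesis through RNA from the rat aorta, library by library and between diets and strains. The genes were taken from a list of symbols of adipocytes, brown fat and lipid synthesis. No measured value set the list, but earlier results of these data were known when it was chosen. All 36 were found as 1 row each among the 26106 genes of the table, and 33 of them passed the filter on low values, together with 13475 genes in all. The tissue was thoracic descending aorta of male rats that began the diets at an age of 4 to 6 weeks and were studied at 12 to 13 weeks. SS is the Dahl salt-sensitive strain, and S2Ba and S2Bb are congenic rats on its background whose chromosome 2 carries Brown Norway DNA, in the distal portion for S2Ba and in a middle segment for S2Bb. Rats of the 3 strains ate a normal salt diet or, as high salt, food with 4% NaCl. Groups held 6 libraries each, except 5 in both SS and S2Ba on high salt, where replicate 3 of the former and replicate 2 of the latter were not analysed here. Whether fat was trimmed from the vessel, when the tissue was taken and where the Brown Norway segments begin and end is not stated in the labels.

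White fat cells store fatty acids as triglyceride in droplets coated by perilipins, release them through lipases under adrenergic control and secrete hormones such as adiponectin and leptin. Brown fat cells burn fatty acids in mitochondria uncoupled by Ucp1, and the fat around the rat thoracic aorta is known to have brown features. The enzymes that make fatty acids are driven by Srebf1 and Mlxipl, while a related factor, Srebf2, drives the genes of cholesterol synthesis and uptake.

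Values are read counts divided by a size factor of the library, so they compare 1 gene between libraries and not 1 gene with another. Recovered depth was 8753735 to 15168833 reads per library, and 1 read was worth 0.0659 to 0.12. A count of 0 therefore allows a value of up to 0.198 to 0.36, which is 3 reads and covers counting error only. Each library has a number of its own in its title, but the labels do not say that it marks an animal, so p-values measure the spread between these libraries. A list of 8 smooth muscle markers summed to between 22224 and 29928 in every library, so the tissue was rich in vessel wall throughout. A list of 8 adipocyte markers, of which 7 are among the 36 genes, summed to between 21.3 and 1116. In bulk tissue, fewer fat cells and less RNA per fat cell cannot be told apart.

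The promoters of 4 genes are shown because the results turn on them: Adipoq and Plin1, which varied together between libraries, Ucp1, which marks brown fat, and Ppargc1a, the gene that passed the test between diets in more than 1 strain. Each sequence runs from 250 bases before to 50 bases after the start of the gene, on the gene's own strand, and comes from RefSeq in build GRCr8. Capitals mark matches on either strand to CCAAT, to the C/EBP site TTGCNNAA or to the TATA box TATAAA. The position of Adipoq is chr11:91240120-91240419 on the minus strand, that of Plin1 is chr1:143086099-143086398 on the minus strand, that of Ucp1 is chr19:41721372-41721671 on the minus strand and that of Ppargc1a is chr14:63634058-63634357 on the plus strand.
Adipoq: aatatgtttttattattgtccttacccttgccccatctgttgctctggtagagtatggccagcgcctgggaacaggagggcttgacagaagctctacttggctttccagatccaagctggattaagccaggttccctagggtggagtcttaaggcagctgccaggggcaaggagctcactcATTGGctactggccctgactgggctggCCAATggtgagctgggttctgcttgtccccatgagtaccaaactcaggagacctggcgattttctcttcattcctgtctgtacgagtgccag
Plin1: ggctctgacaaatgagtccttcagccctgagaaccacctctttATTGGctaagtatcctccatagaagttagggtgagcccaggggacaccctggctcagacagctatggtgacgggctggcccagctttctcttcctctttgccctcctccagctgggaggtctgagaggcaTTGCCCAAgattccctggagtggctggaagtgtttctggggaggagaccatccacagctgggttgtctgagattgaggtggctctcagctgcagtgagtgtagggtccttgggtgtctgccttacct
Ucp1: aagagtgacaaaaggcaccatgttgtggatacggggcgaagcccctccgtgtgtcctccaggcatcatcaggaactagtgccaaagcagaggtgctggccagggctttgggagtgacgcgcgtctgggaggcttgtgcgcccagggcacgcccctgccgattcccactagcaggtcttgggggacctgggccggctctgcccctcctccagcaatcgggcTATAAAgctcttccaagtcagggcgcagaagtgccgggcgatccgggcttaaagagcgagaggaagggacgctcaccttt
Ppargc1a: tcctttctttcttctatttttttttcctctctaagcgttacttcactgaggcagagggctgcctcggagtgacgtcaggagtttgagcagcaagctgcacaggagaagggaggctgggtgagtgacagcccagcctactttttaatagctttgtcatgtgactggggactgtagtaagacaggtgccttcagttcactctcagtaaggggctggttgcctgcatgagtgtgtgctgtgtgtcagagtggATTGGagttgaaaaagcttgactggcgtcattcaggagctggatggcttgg

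The Adipoq promoter held 2 CCAAT matches and the Plin1 promoter held 1 of them and 1 C/EBP site. The Ucp1 promoter held a TATA box whose first base lies 30 bases before the start, and the Ppargc1a promoter held 1 CCAAT match across the start. Of the 36 genes 24 had a promoter in the RefSeq table and 20 had exactly 1. CCAAT was found in 10 of these 20, against 37.5% of all 33469 promoters of this length. The TATA box was found in 4 of the 20 (14.2% of all promoters), the C/EBP site in 3 (10.6%) and the nuclear receptor site AGGTCA in 3 (16.2%). The E-box CACGTG, which can be bound by Srebf1 and Mlxipl, was found in 1 (6.42%) and the sterol response element TCACNCCAC in 0 (1.12%). These are matches of letters in a short window and do not show binding.

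Of the 36 genes, 3 fell under the filter of a mean value of 0.5 over all libraries. Elovl6, which lengthens palmitate, was listed with 1 read over the 34 libraries, and Pnpla2, which encodes adipose triglyceride lipase, also with 1 read. Elovl3, which lengthens very long fatty acids in brown fat, had 6 reads in 2 libraries. Pnpla2 is used by most tissues, so these rows are given only as listed at or near 0. The lowest gene above the filter was Plin5 with a mean of 2.05 over all libraries and 845 reads in all. The next were Mlxipl with 3.67 and Adrb3 with 3.81.

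A pair of libraries stood apart, both of S2Ba on normal salt. Replicate 1 held the highest Adipoq of the series and replicate 4 the lowest. Counts of calls between diets are also given without this pair.

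**Figure D1:**
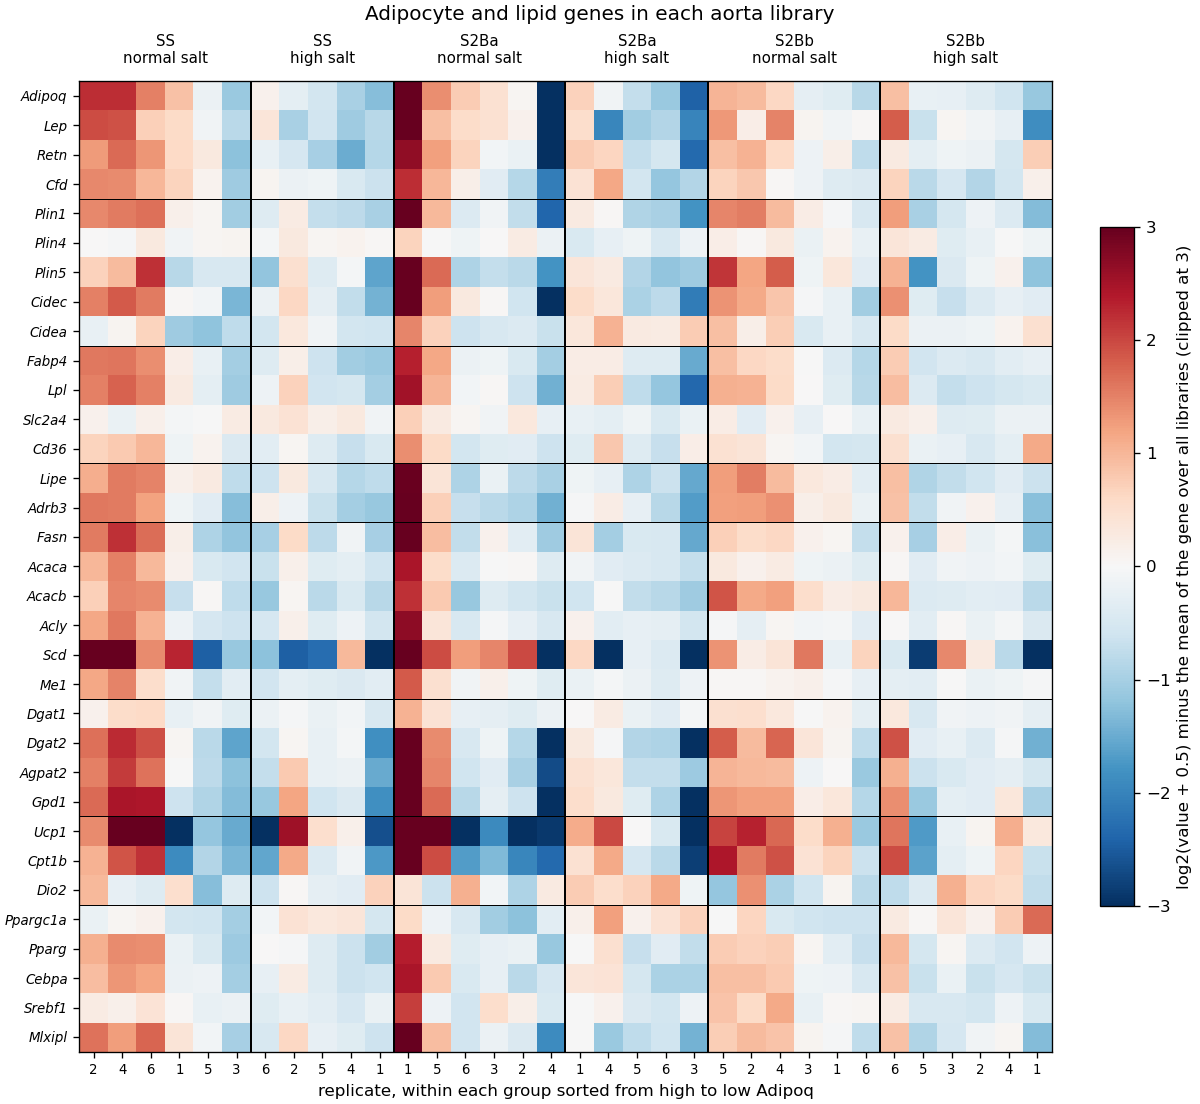
Heat map of the 33 tested genes (rows, grouped by role) in the 34 libraries (columns, grouped by strain and diet and sorted by Adipoq within each group). Colour is log2(value + 0.5) minus the mean of the gene over all libraries. Most rows follow Adipoq from red to blue within each group, and Plin4, Slc2a4, Dio2 and Ppargc1a do so least.

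The adipokines are the hormones of fat cells. Adipoq encodes adiponectin. In SS rats Adipoq ran from 19.6 through a median of 102 to 202 on normal salt, and the 5 high salt libraries held 17.3, 35.2, 21.6, 29.1 and 47.1. In S2Ba rats it ran from 1.88 through a median of 65.8 to 385 on normal salt, and the high salt libraries held 70.0, 7.53, 40.0, 25.9 and 19.6. In S2Bb rats it ran from 24.03 through 50.9 to 88.2 on normal salt and from 19.4 through 34.7 to 80.2 on high salt. All 3 pairs of diets overlapped, and the whole span of Adipoq over the series was 205-fold. Within SS on normal salt alone the highest value was 10.3 times the lowest.

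Lep encodes leptin, which reports fat stores to the brain. Lep ran from 2.26 through 7.06 to 18.4 in SS on normal salt, and the high salt libraries held 2.20, 1.97, 1.796, 2.72 and 5.71. In S2Ba it ran from 0.11 through 6.35 to 42.0 on normal salt, and the high salt libraries held 6.41, 0.729, 0.75, 1.83 and 2.11. In S2Bb it ran from 3.95 through 4.81 to 12.97 on normal salt and from 0.832 through 3.77 to 16.4 on high salt. The highest and the lowest Lep values came from the same S2Ba libraries as those of Adipoq. Retn (resistin) and Cfd (complement factor D, the adipsin of rodent fat) spanned 0.11 to 49.1 and 4.97 to 107 and had their extremes in that pair too.

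Among the coats of the lipid droplet, Plin1 guards the droplet of white fat cells against lipases. Plin1 ran from 10.7 through 44.2 to 72.5 in SS on normal salt, and the high salt libraries held 11.3, 26.95, 12.98, 13.7 and 17.1. It ran in S2Ba from 3.98 through 18.98 to 221 on normal salt, and the high salt libraries held 27.6, 6.23, 23.3, 11.9 and 11.4. In S2Bb it ran from 16.2 through 35.5 to 66.7 on normal salt and from 8.98 through 16.3 to 54.8 on high salt. The 2 diets overlapped in each strain. Cidec, which fuses droplets in white fat, spanned 0.663 to 146. Cidea, its counterpart in brown fat, spanned 13.8 to 90.8 and Plin5, the perilipin of oxidative tissues, 0 to 13.98. Plin4 stayed between 100.3 and 224 and was far steadier than the other coat genes.

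Genes of uptake and lipolysis spanned wide ranges, with 1 exception. Fabp4, the fatty acid carrier of adipocytes, spanned 33.3 to 481, Lpl, the lipase that frees fatty acids at the capillary wall, 14.01 to 425, and the fatty acid transporter Cd36 17.9 to 77.9. Lipe, the hormone-sensitive lipase, spanned 6.40 to 154 and Adrb3, the beta-adrenergic receptor typical of rodent fat cells, 0.486 to 26.2. The exception was Slc2a4, the insulin-regulated glucose transporter, which stayed between 62.3 and 143.

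**Figure D2:**
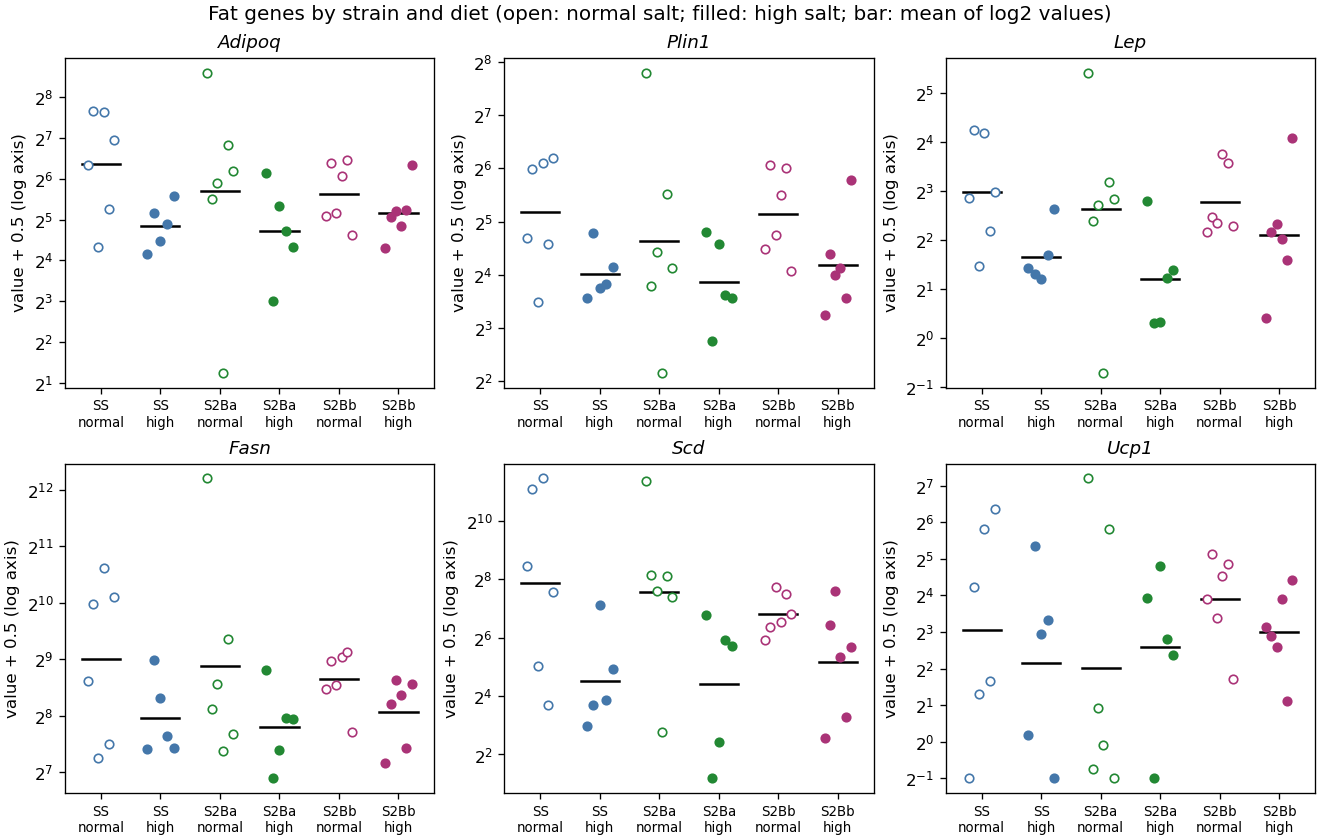
Values of 6 genes in each library by strain and diet on a log axis after adding 0.5. Open circles are normal salt, filled circles are high salt and bars are means of the log2 values. In every panel the diets overlap within each strain, and S2Ba normal salt holds the highest circle of each panel except that of Scd, where SS normal salt does.

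The synthesis of fatty acids begins with Acly, which makes acetyl-CoA, and Acaca, which makes malonyl-CoA, and Fasn joins these units to palmitate. Fasn ran from 152 through 701 to 1571 in SS on normal salt, and the high salt libraries held 170.2, 507, 319, 199 and 172. In S2Ba it ran from 165 through 327 to 4693 on normal salt, and the high salt libraries held 449, 119, 168, 249.6 and 244. It ran in S2Bb from 209 through 438 to 562 on normal salt and from 143 through 313 to 394 on high salt. The value of 4693 belonged to S2Ba normal salt replicate 1, and the highest value of any other group was 1571. The diets overlapped in each strain. Acly spanned 87.5 to 863, Acaca 62.9 to 565, Acacb, whose malonyl-CoA restrains fatty acid oxidation, 7.502 to 79.7 and Me1, the malic enzyme that supplies NADPH, 36.5 to 216.

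Scd encodes the desaturase that makes oleate from stearate. Scd ran from 12.5 through 267 to 2785 in SS on normal salt, and the high salt libraries held 7.32, 12.5, 138, 14.04 and 29.8. In S2Ba it ran from 6.30 through 235 to 2604 on normal salt, and the high salt libraries held 109, 1.78, 4.91, 59.3 and 52.3. In S2Bb it ran from 60.0 through 101 to 213 on normal salt and from 5.41 through 45.6 to 192 on high salt. The span of 1563-fold was the widest among the tested genes with no value of 0, and the diets overlapped in each strain. A closely related desaturase, Scd2, has a row of its own, and reads that fit both could be split between them. Scd2 stayed between 254 and 701 and did not pass the limma test between diets in any strain.

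Triglyceride is built on glycerol phosphate, which Gpd1 makes. Gpd1 spanned 4.37 to 851, Agpat2, which adds the second fatty acid, 1.22 to 88.0, and Dgat2, which adds the last, 2.21 to 399.9. Dgat1, the other enzyme of the last step, spanned 17.3 to 50.9 and was steadier than Dgat2.

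Ucp1, the uncoupling protein of brown fat, was at 0 in 4 libraries from 4 groups. In SS rats Ucp1 ran from 0 through 10.5 to 81.8 on normal salt, and the high salt libraries held 0.63, 40.6, 7.27, 9.49 and 0. It ran in S2Ba from 0 through 0.914 to 146 on normal salt, and the high salt libraries held 14.7, 0, 27.3, 6.55 and 4.63. In S2Bb it ran from 2.78 through 18.5 to 34.3 on normal salt and from 1.66 through 7.64 to 20.8 on high salt. A count of 0 allowed at most 0.243 to 0.276 in those 4 libraries. Both diets overlapped in each strain, and SS and S2Ba each had a library at 0 on each diet. Of 7 brown fat markers, 5 of them among the 36 genes, Elovl3 was at 0 in 5 groups and Cox7a1 in S2Bb on high salt. Cpt1b, which carries fatty acids into muscle and brown fat mitochondria, spanned 0.729 to 85.9. Dio2, the deiodinase that activates thyroid hormone in brown fat, spanned 1.27 to 10.6.

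Among the regulators, Pparg and Cebpa drive the making of fat cells and spanned 3.42 to 44.0 and 5.40 to 65.3. Srebf1 spanned 38.2 to 244 and Mlxipl, the carbohydrate response factor, 0.331 to 27.8. Ppargc1a, a coactivator of mitochondrial genes, spanned 1.65 to 15.9. All these genes except Ppargc1a were highest in S2Ba normal salt replicate 1.

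Across libraries, most of the genes moved with Adipoq. Deviations of log2(value + 0.5) from the group mean were correlated over the 34 libraries, so that diet and strain did not enter. Of 32 genes, 29 were correlated with Adipoq at a Benjamini-Hochberg adjusted p under 0.05, with 100000 permutations within groups, two-sided. No such share was computed over all genes, so the count does not set these genes apart from the rest. Cidec was closest, with Pearson's r 0.96 and Spearman's rho 0.91. Retn (r 0.93, rho 0.81), Dgat2 (0.92 and 0.87) and Plin1 (0.91 and 0.88) followed. For these 4 genes both permutation p-values were 1e-05, the smallest that the permutations can give, and the adjusted p was 2.67e-05 for r. Without S2Ba normal salt replicates 1 and 4, the libraries farthest from the median, r was 0.93 for Cidec, 0.85 for Retn, 0.92 for Dgat2 and 0.91 for Plin1. The genes closest to Adipoq were thus coats, hormones and the last enzyme of triglyceride synthesis.

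The correlation with Adipoq was not called for Plin4 (r 0.40), Ppargc1a (0.28) and Dio2 (0.12). For Slc2a4 r was 0.46 with an adjusted permutation p of 0.0341, and it fell to 0.16 without S2Ba normal salt replicates 1 and 4, so it rested on those libraries. The median r over the 32 genes was 0.75.

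With Ucp1 in place of Adipoq, an anchor added after the data were seen, 30 of 32 genes were called and the median r was 0.77. The share over all genes was not computed for this anchor either. Cpt1b was closest, with r 0.96 and rho 0.96, each with a permutation p of 1e-05, the smallest the permutations can give, and an adjusted p of 1.78e-05. Without S2Ba normal salt replicate 1 and SS normal salt replicate 1, r for Cpt1b was 0.94. Gpd1 (r 0.89), Plin5 (0.88) and Acacb (0.86) came next. Lep had r 0.46 with Ucp1 and 0.90 with Adipoq, and Retn 0.61 and 0.93. The difference between these values was not tested. Adipoq and Ucp1 themselves had r 0.60, with an adjusted permutation p of 0.00375.

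**Figure D3:**
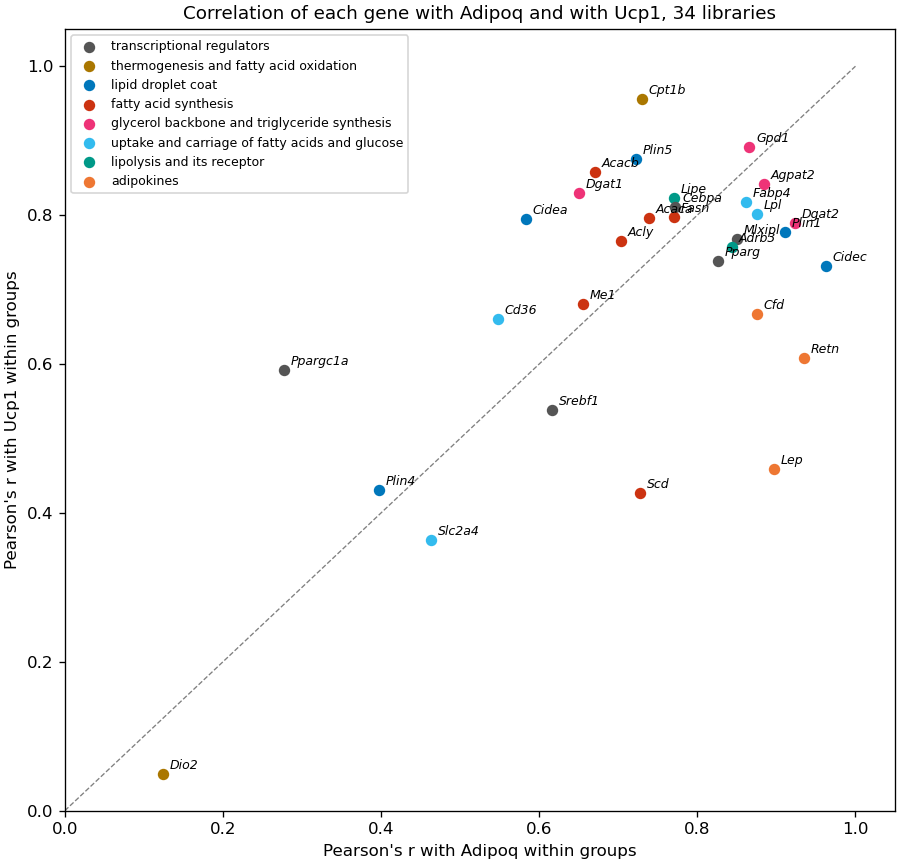
Pearson's r of each gene with Adipoq (horizontal) and with Ucp1 (vertical), from deviations of log2(value + 0.5) from the group means over 34 libraries. Colours give the role of the gene and the dashed line marks equal r. Cpt1b lies highest at 0.96 with Ucp1, while Lep lies at 0.90 with Adipoq and 0.46 with Ucp1.

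On high salt, most of the genes had lower estimates, but hardly any passed the limma test. In SS, 28 of 33 were lower on high salt, with a median log2 fold change of -0.88 against -0.02 over all genes tested. Over all genes tested 53.3% were lower in SS, and 50.2% to 56.1% in the other comparisons of diets or of strains. Most of the 33 moved with Adipoq, so counts of direction, here and between strains, are not counts of independent genes. Of the 33, limma with Benjamini-Hochberg adjustment over all genes called 0, while it called 8.38% of all genes in this comparison. At an unadjusted p under 0.05 in limma there were 8 of the 33, a share near the 24.8% of all genes tested. On the recovered reads edgeR called 1 and DESeq2 3. Without the S2Ba pair that stood apart, which changes the spread shared by all groups, limma called 4, namely Acaca, Scd, Retn and Me1. The spread is part of this result: the median standard error of the 33 genes was 0.51 on the log2 scale, against 0.14 over all genes tested.

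The genes of SS with an unadjusted p under 0.05 in limma were all lower on high salt. They were Scd, Fabp4, Lipe, Acaca, Acacb, Retn, Cd36 and Me1, and each had overlapping groups. Scd, the gene that edgeR called, had a log2 fold change of -3.36 (SE 1.26, 95% interval -5.92 to -0.80) and a limma adjusted p of 0.0892. Adipoq had -1.52 (SE 0.75, 95% interval -3.05 to 0.02) and an adjusted p of 0.208 in limma. By role, all 4 adipokines and all 6 tested genes of fatty acid synthesis were lower, with medians of -1.40 and -0.89.

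In S2Ba, 29 of 33 were lower on high salt, with a median log2 fold change of -0.54 against -0.01 over all genes. Limma called 3 of the 33, 1 higher and 2 lower, where it called 15.2% of all genes. The 3 were Ppargc1a, Plin4 and Slc2a4, which are also among the genes that followed Adipoq least. Without the S2Ba pair that stood apart limma called 2, Ppargc1a and Slc2a4. On the recovered reads of all libraries edgeR and DESeq2 called more than 3, with 12 of the 33 for DESeq2. Scd had -3.15 (SE 1.26) with a limma adjusted p of 0.0859, and Lep -1.43 (SE 0.67) with 0.149.

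In S2Bb, 29 of 33 were lower, with a median of -0.48 against -0.00 over all genes. Limma called 1 of the 33, Ppargc1a, which was higher, where it called 22.1% of all genes. Srebf1 had -0.72 (SE 0.28) with a limma adjusted p of 0.0597 and Acacb -1.09 (SE 0.43) with 0.065. Both were called without the S2Ba pair that stood apart, as were Lipe and Ppargc1a, 4 in all. The share of the 33 genes that passed the limma test was thus below the background in each strain. With edgeR and DESeq2 it was above the background in S2Ba. Markers of mesothelium, the lining of the body cavities, were also lower on high salt in the congenic strains. Limma called 2 of 3 tested as lower in both, with a median log2 fold change of -0.66 in S2Ba and -0.55 in S2Bb, and 0 of 3 in SS, with -0.03. All 7 markers listed were in the table, and their sums were 12.7 to 33.3 on normal and 5.50 to 12.7 on high salt in S2Ba, and 12.6 to 25.03 and 4.33 to 9.76 in S2Bb. In SS they were 10.6 to 16.1 and 10.8 to 13.2. Lrrn4 was at 0 in S2Bb on normal salt. The part of these cells in the results was not tested.

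**Figure D4:**
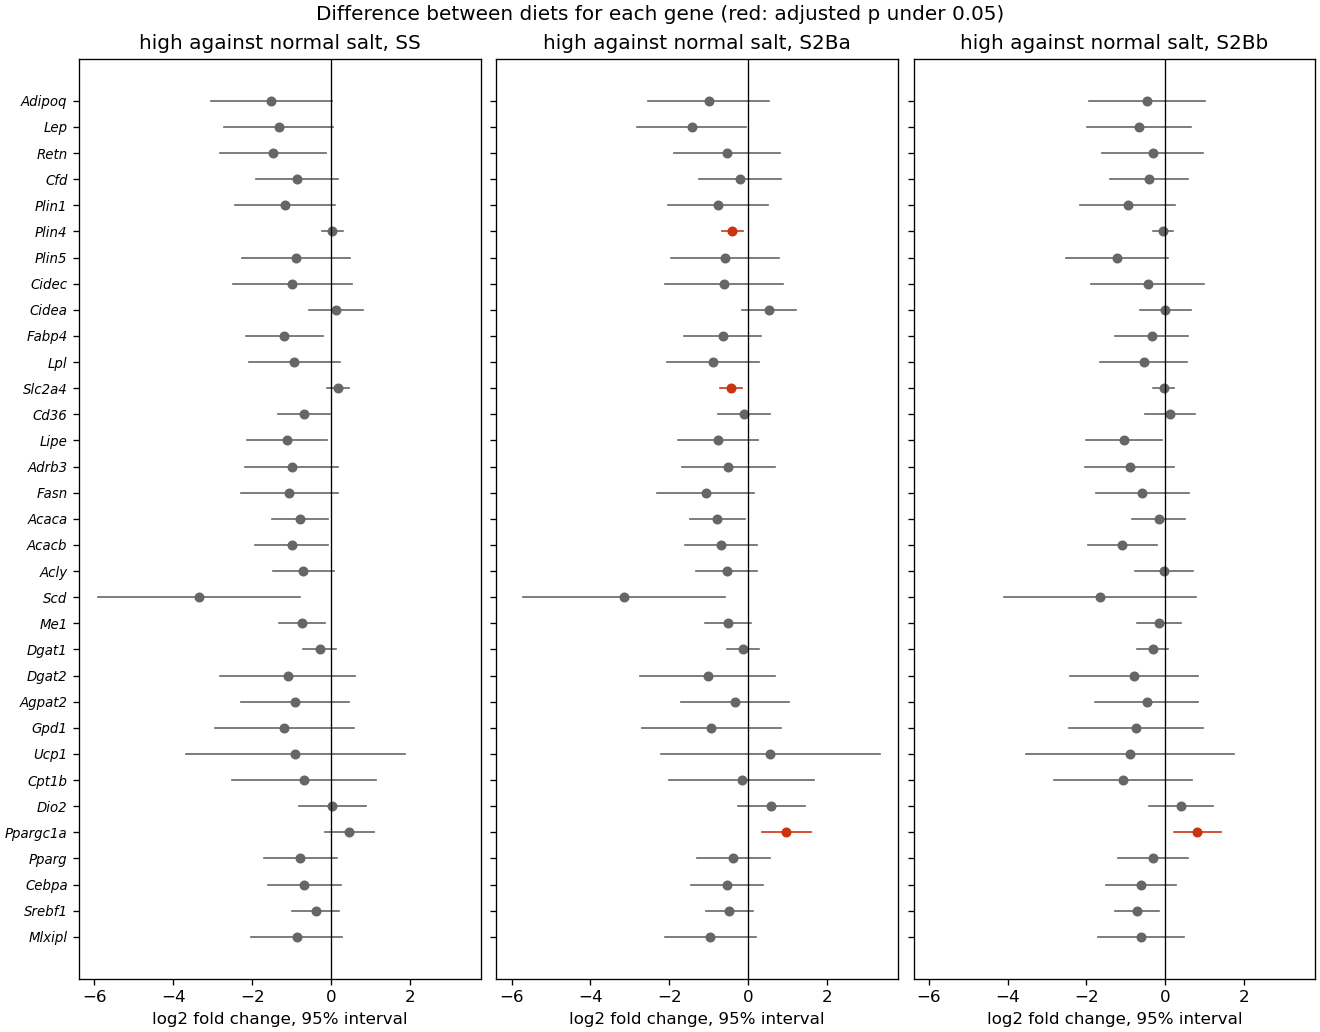
Log2 fold change of high over normal salt for the 33 genes in SS, S2Ba and S2Bb, with 95% intervals from limma. Red marks an adjusted p under 0.05, which only Ppargc1a, Plin4 and Slc2a4 reach in S2Ba and Ppargc1a in S2Bb.

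Ppargc1a rose on high salt in both congenic strains. In S2Ba it ran from 1.65 through 3.31 to 6.99 on normal salt, and the high salt libraries held 5.11, 7.53, 11.3, 4.98 and 6.32. It ran in S2Bb from 2.74 through 2.98 to 7.39 on normal salt and from 4.62 through 5.73 to 15.9 on high salt. In SS it ran from 1.97 through 3.39 to 5.00 on normal salt, and the high salt libraries held 2.99, 6.30, 5.96, 5.70 and 4.26. The diets overlapped in each strain, with most high salt libraries above the normal salt median. The fold was 1.96 in S2Ba (log2 0.97, SE 0.30, limma adjusted p = 0.0271) and 1.76 in S2Bb (log2 0.81, SE 0.29, limma adjusted p = 0.0392). In SS the log2 fold change was 0.47 (SE 0.30, limma adjusted p = 0.346). The salt effect did not pass the interaction test against SS, with a difference of 0.50 (SE 0.43, limma adjusted p = 0.753) for S2Ba and 0.35 (SE 0.42, limma adjusted p = 0.785) for S2Bb.

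The Ppargc1a calls were not firm. In S2Ba the call was lost without normal salt replicate 2 or 3 or high salt replicate 3 or 4, with limma adjusted p-values of 0.0598 to 0.0984, and also with no filter (0.0595) and with only the groups compared (0.0661). In S2Bb it was lost without normal salt replicate 1, 3, 4 or 6 or high salt replicate 1 or 4, with 0.0692 to 0.147, and also with no filter (0.0838), with clock components as covariates (0.0659) and with only the groups compared (0.0531). The libraries with the highest Ppargc1a of their groups, S2Ba high salt replicate 4 and S2Bb high salt replicate 1, also held the highest Cd36 among high salt libraries, at 51.6 and 64.8. Their 9 macrophage markers summed to 790 and 797 and their 6 capillary endothelium markers to 3355 and 3394. In S2Ba the macrophage sums ranged from 232 to 424 on normal salt and from 299 to 790 on high salt, and in S2Bb from 239 to 331 and from 281 to 797. The capillary sums were at most 1800 on normal salt in either strain. On high salt they ranged from 1661 to 3355 in S2Ba and from 1295 to 3394 in S2Bb. A sum can be dominated by its most abundant markers, and the capillary markers did not rise as a set. Of 5 tested, limma called 1 as higher and 1 as lower on high salt in S2Ba, with a median log2 fold change of -0.10. In S2Bb it called 1 as higher and 0 as lower, with a median of 0.09. Of 9 macrophage markers tested, limma called 2 as higher in S2Ba and 1 in S2Bb, with 0 lower and medians of 0.53 in each. In SS it called 0 as higher and 1 as lower, with a median of -0.03. Over all genes it called 15.2% in S2Ba, 22.1% in S2Bb and 8.38% in SS. Among the 6 capillary markers, 2 belong to the genes followed here. The part of macrophages and capillary cells in the result was not tested.

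Plin4, a perilipin of small droplets in fat and muscle, fell on high salt in S2Ba. It ran from 124 through 141 to 224 on normal salt, and the high salt libraries held 103, 127, 119, 128 and 100.3. The groups overlapped at the lower end of normal salt. The fold was 0.758 (log2 -0.40, SE 0.13, limma adjusted p = 0.0320). Without S2Ba normal salt replicate 1 the log2 fold change was -0.29 with an adjusted p of 0.107 in limma, and the call was also lost without normal salt replicate 2 or high salt replicate 1 or 6, with no filter, with the fat index, with only the groups compared and without the pair that stood apart. In SS and S2Bb the log2 fold changes were 0.03 (SE 0.13) and -0.05 (SE 0.12), and neither was called.

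Slc2a4 fell in the same strain. It ran from 73.2 through 97.7 to 143 on normal salt, and the high salt libraries held 73.4, 74.8, 70.8, 78.9 and 62.3. All 5 lay below the normal salt median, and the groups overlapped. The fold was 0.739 (log2 -0.44, SE 0.14, limma adjusted p = 0.0282). Without S2Ba normal salt replicate 1 the log2 fold change was -0.33 with an adjusted p of 0.0952 in limma, and the call was also lost without normal salt replicate 2 or high salt replicate 4 or 6, with no filter, with array weights, with the fat index and with only the groups compared. In SS and S2Bb the log2 fold changes were 0.17 (SE 0.14) and -0.04 (SE 0.13), and neither was called.

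**Figure D5:**
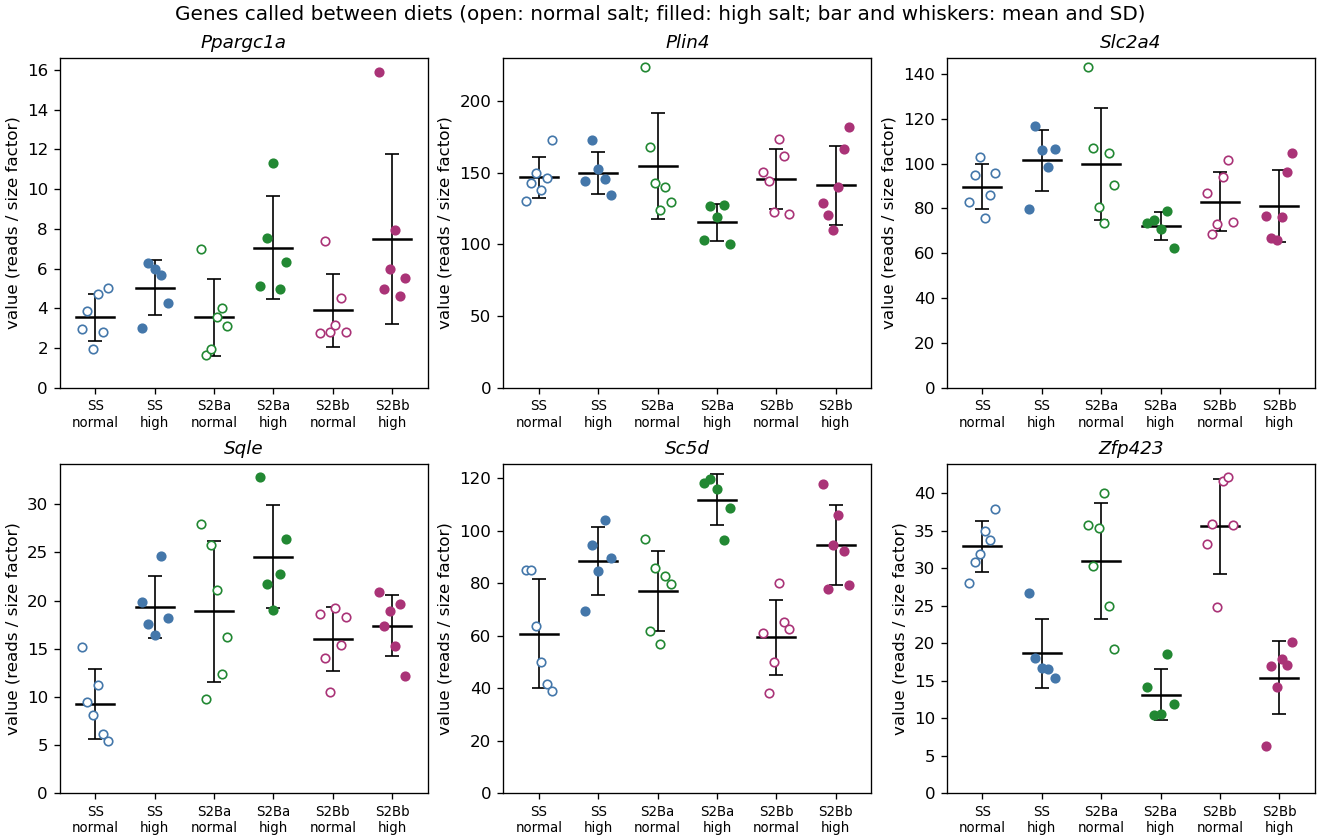
Values of Ppargc1a, Plin4, Slc2a4, Sqle, Sc5d and Zfp423 in each library by strain and diet, with means and SD. Zfp423 does not overlap between diets in any strain, and Sqle does not overlap between diets in SS.

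Other adipocyte genes had lower means on high salt too. A fat index, the mean log2 value of the adipocyte genes Lgals12, Aqp7, Tusc5 and Acvr1c, which are not among the 36, was 3.30 ± 0.94 (SD, n = 6) in SS on normal salt and 2.43 ± 0.35 (n = 5) on high salt. It was 2.87 ± 1.47 (n = 6) and 2.29 ± 0.63 (n = 5) in S2Ba, and 3.01 ± 0.70 (n = 6) and 2.47 ± 0.58 (n = 6) in S2Bb. With this index as a covariate, 17 of 33 genes were lower on high salt in SS, 18 in S2Ba and 13 in S2Bb. The medians were then -0.02, -0.05 and 0.06, and the median standard errors 0.23, 0.22 and 0.21. Limma then called 0 genes in SS, Ppargc1a and Cidea as higher in S2Ba, and Ppargc1a as higher with Lipe and Acacb as lower in S2Bb. The index is itself made of adipocyte genes of the same libraries. Medians nearer 0 therefore follow from how this covariate is made, and the cause of the difference between diets was not tested.

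Between strains on the same diet, none of the 33 genes passed the limma test. On normal salt 28 of 33 were lower in S2Ba than in SS, with a median log2 fold change of -0.32, and limma called 0 of them where it called 0.267% of all genes. Unadjusted, 0 had a p under 0.05, against 14.5% of all genes, and edgeR and DESeq2 called 0. On normal salt 22 of 33 were lower in S2Bb than in SS, with a median of -0.15, and limma called 0 against 1.44% of all genes. Unadjusted there were 0, against 13.4% of all genes, and edgeR and DESeq2 called 0.

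On high salt 16 of 33 were lower in S2Ba than in SS, with a median of 0.02, and limma called 0 against 1.73% of all genes. Unadjusted, 3 had a p under 0.05, a share below the 17.2% of all genes, and edgeR called 0 and DESeq2 1. The 3 were Slc2a4, Plin4 and Cidea. Slc2a4 did not overlap between the strains, with a log2 fold change of -0.48 (SE 0.14, limma adjusted p = 0.0743), nor did Plin4, with -0.38 (SE 0.13, limma adjusted p = 0.135). In S2Bb against SS on high salt 29 of 33 were higher, with a median of 0.23, and limma called 0 against 0.267% of all genes. Unadjusted there was 1, Slc2a4, against 8.76% of all genes, and edgeR and DESeq2 called 0.

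The effect of salt itself was compared between strains as an interaction with SS. For S2Ba limma called 0 of the 33 and 0% of all genes, and edgeR and DESeq2 called 0 of the 33. At an unadjusted p under 0.05 there were 2 of the 33, a share below the 9.71% of all genes. These 2 were Slc2a4, with a difference of -0.61 (SE 0.19, limma adjusted p = 0.307), and Plin4, with -0.43 (SE 0.18, limma adjusted p = 0.449). For S2Bb limma called 0 of the 33 and 0.171% of all genes, and edgeR and DESeq2 called 0 of the 33. Unadjusted there were 0, against 12.6% of all genes. The calls of Plin4 and Slc2a4 in S2Ba alone are therefore not shown to differ from SS.

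Genes of cholesterol synthesis and uptake, a list beside the 36, went the other way, with the most calls in SS. Of 22 tested, limma called 9 as higher and 0 as lower on high salt, with a median log2 fold change of 0.41. In S2Ba it called 3 as higher and in S2Bb 2, with 0 lower in either, and medians of 0.32 and 0.16. Against the 8.38%, 15.2% and 22.1% called over all genes, the share was higher in SS, near it in S2Ba and lower in S2Bb. Sqle, the squalene epoxidase, ran from 5.40 through 8.79 to 15.2 in SS on normal salt, and the high salt libraries held 19.8, 17.6, 16.4, 24.6 and 18.2. The diets did not overlap, and the log2 fold change was 1.09 (SE 0.23, limma adjusted p = 0.00475). On normal salt Sqle was also higher in S2Ba than in SS, with 0.98 (SE 0.22, limma adjusted p = 0.0399). Its salt effect did not pass the interaction test against SS, with limma adjusted p-values of 0.520 for S2Ba and 0.197 for S2Bb. Of the 22, limma called 1 as higher in S2Ba than in SS on normal salt (0.267% of all genes). Unadjusted there were 11, against 14.5% of all genes, with a median of 0.36. Sc5d, a late enzyme of the pathway, was called in all 3 strains, with 0.60, 0.55 and 0.69 and limma adjusted p-values of 0.0378, 0.0363 and 0.00402. Its call was lost in 10 of 24 alternatives in SS and in 9 of 24 in S2Ba, the latter including the one without the pair that stood apart, and in 0 of 25 in S2Bb. Srebf2 and its regulator Insig1 were not called in any strain. The count in S2Ba was 0 without S2Ba high salt replicate 1, and that in SS ranged from 4 with no filter to 13 with DESeq2.

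Of 25 tested adipocyte genes outside the 36, limma called 1 as lower in SS, 4 as lower in S2Ba and 1 as higher in S2Bb, with medians of -0.52, -0.38 and -0.32. The share called in S2Ba was near the 15.2% of all genes, and those in SS and S2Bb were below the 8.38% and 22.1%. Angptl4, a secreted inhibitor of lipoprotein lipase, fell in SS from 19.4 ± 5.51 (SD, n = 6) to 4.59 ± 1.58 (n = 5) with no overlap, a log2 fold change of -1.98 (SE 0.51, limma adjusted p = 0.0163). That call was lost without SS high salt replicate 4, with the fat index and with the clock components as covariates. In S2Ba the genes called were Nnat, Gpihbp1, Mgll and Acss2, and in S2Bb the gene was Mogat1. All 4 calls in S2Ba were lost without S2Ba normal salt replicate 1, and the calls were lost in 4, 9, 13 and 12 of 24 alternatives. The call of Mogat1 was lost in 14 of 25.

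Among 25 tested genes of brown fat and fatty acid oxidation, limma called 1 as lower in SS, 4 as lower in S2Ba, and 4 as lower and 1 as higher in S2Bb. Their medians were -0.31, -0.29 and -0.30. These shares were near the 15.2% and 22.1% of all genes in S2Ba and S2Bb and below the 8.38% in SS. Ech1, an isomerase of fatty acid oxidation, was called in all 3 strains. It fell in SS from 53.6 ± 5.65 (SD, n = 6) to 34.7 ± 3.26 (n = 5) with no overlap and with limma log2 fold changes of -0.62, -0.51 and -0.66 in SS, S2Ba and S2Bb and adjusted p-values of 0.0132, 0.0220 and 0.00135. Pdk4, the kinase that turns off pyruvate oxidation, and Kcnk3, a potassium channel of brown fat and vessels, fell in S2Ba (-1.19 and -1.22) and S2Bb (-1.22 and -1.23). All calls of Ech1, Pdk4 and Kcnk3 in S2Ba were lost without S2Ba normal salt replicate 1, and those of Pdk4 and Kcnk3 also without the pair that stood apart. In S2Bb the call of Kcnk3 was lost without high salt replicate 3, and those of Ech1 and Pdk4 in 0 of 25 alternatives. The call counts ranged from 0 to 5 in S2Ba and from 3 to 8 in S2Bb over the other settings.

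Zfp423, a transcription factor of cells committed to become fat cells, fell in every strain. In SS it ran from 28.1 through 32.9 to 37.9 on normal salt, and the high salt libraries held 26.7, 17.99, 16.7, 16.5 and 15.3. In S2Ba it ran from 19.2 through 32.8 to 40.0, and the high salt libraries held 14.2, 10.4, 10.5, 18.5 and 12.0. In S2Bb it ran from 24.9 through 35.8 to 42.2 on normal salt and from 6.24 through 17.03 to 20.2 on high salt. The diets did not overlap in any strain. The log2 fold changes were -0.83 (SE 0.21) in SS, -1.20 (SE 0.21) in S2Ba and -1.24 (SE 0.20) in S2Bb, with limma adjusted p-values of 0.0149, 0.000265 and 3.86e-05. Of the 9 tested genes of progenitors and stroma, limma called 2 as lower in SS, 1 in S2Ba and 2 in S2Bb, the others being Pdgfra in SS and Lum in S2Bb. Over all genes it called 8.38%, 15.2% and 22.1%, so the share was higher in SS and near it in S2Ba and S2Bb. The call of Pdgfra was lost with the fat index, with clock components and without SS normal salt replicate 4 or high salt replicate 2 or 4, and that of Lum without S2Bb normal salt replicate 2. Clock genes also differed between diets: Arntl was 60.1 to 87.2 in SS on normal salt, 74.3 in high salt replicate 1 and 2.43 to 11.4 in the other 4 high salt libraries. The time of collection is not stated, so effects of diet and of time of collection cannot be told apart here. With the first 2 components of the clock genes as covariates, the call of Zfp423 was lost in SS.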

How the data were processed

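Total RNA libraries of rat aorta were prepared with the TruSeq total RNA kit and sequenced as read pairs on an Illumina HiSeq, per the labels' protocols. The submitters' processing notes name edgeR 3.6.8, R 3.2.3, the aligner STAR 2.3.1, FastQC and bcl2fastq 1.8.4. The genome build, the annotation and the strand setting were not given in the sources used here. The deposited table holds a signal per gene that the authors had scaled, and its steps show read counts divided by a size factor of each library: 100% of values were whole reads within 0.01 reads. All value columns were mapped to samples, with 0 columns not used.

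Since these are not raw counts, the main test was limma 3.58.1 in R 4.3.3 with an intensity trend on log2(value + 0.5), for genes with a mean of at least 0.5, with 1 mean for each of the 6 groups, 9 contrasts, two-sided tests and Benjamini-Hochberg adjustment over all genes tested in a contrast. The threshold for a call was an adjusted p of 0.05. This scale understates the fold changes of low genes. Alternatives were edgeR 4.0.16 and DESeq2 1.42.0 on the recovered reads, other scalings, pseudocounts and filters, library weights, covariates, only the groups compared and each library left out. Over all genes edgeR called 1 to 3046 genes in the 9 contrasts. The limma test was first tried on simulated counts for salt in SS, with the same spread set for all genes. That spread does not represent genes that vary as widely between libraries as most of these. The edgeR, DESeq2 and permutation tests were not tried in this way.

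The genes, lists and tests were chosen with earlier results of these data known. Values by library are given for genes called in any contrast and for Adipoq, Lep, Plin1, Ucp1, Fasn and Elovl6; other genes are given by ranges and counts, and up to 4 called genes are named from each list. Scd, Cd36 and the genes near the threshold were added after their values were seen. Of the called genes in the lists, 1 is not reported here.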

Additional observations from a re-analysis of the deposited data

Results flagged for a closer look

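Within groups of 5 or 6 libraries, the gap between the highest or lowest library and its nearest neighbour on the log2 scale was compared with Dixon's 95% critical value. Of 198 pairs of a gene and a group, 10 passed, where chance flags about 1 in 20 groups. The count is thus near that of chance, and the flagged values are listed only as such. Genes of 1 library are not independent.

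S2Bb high salt replicate 6 gave 7 of them, each as the highest library of its group. Fabp4 was 163 there with the next library at 80.5, Lpl 139 with 54.7 and Cidec 45.1 with 14.3. Lipe was 37.0 with the next at 15.3, Acacb 34.9 with 13.6, Agpat2 22.6 with 8.58 and Cebpa 21.4 with 9.87. These genes span uptake, droplet coat, lipolysis and synthesis.

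S2Ba normal salt replicate 1 gave the other 3, again as the highest. Acly was 863 with the next library at 173, Acaca 565 with 151 and Lipe 154 with 25.6.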

How the results depend on the processing

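Counts of calls among the 33 genes moved with the settings; where no construction explains a change, the cause was not tested. For salt in SS (0 called) the count was 1 with edgeR, 3 with DESeq2, 6 with array weights, 2 with only the groups compared and 4 without the libraries of highest and lowest Adipoq, and 0 to 3 with 1 library left out. For salt in S2Ba (3 called) it was 0 with no filter, 8 with edgeR, 12 with DESeq2, 0 with only the groups compared, and 0 to 6 with 1 library left out. Over all genes no alternative called more than 2527 there, so the shares with edgeR and DESeq2 were above the background. For salt in S2Bb (1 called) it was 0 with no filter, 2 with DESeq2, 3 with array weights, 3 with the fat index, 0 with clock components, 3 with only the groups compared and 4 without the Adipoq pair, and 0 to 4 with 1 library left out. For S2Ba against SS on high salt (0 called) it was 1 with DESeq2, 2 with array weights, 1 with the fat index, 3 with only the groups compared and 1 without the Adipoq pair, and 0 to 1 with 1 library left out. In the other 5 comparisons the count was 0 in each alternative run. The estimate of Adipoq for salt in S2Bb changed sign with the fat index, to 0.30. The number of genes correlated with Adipoq was 28 or 29 in each alternative run. The Adipoq pair, the Ucp1 anchor and the counts of the lists under these settings were chosen after seeing the data.

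Over all genes, limma called 1129 in SS and 2705 with array weights, 2042 in S2Ba and 1093 with only the groups compared, and 233 for S2Ba against SS on high salt, where DESeq2 called 491, array weights 1048 and only the groups compared 360. No paired analysis was possible because the labels give no replicate numbers shared between groups. Ucp1 and Plin5 had libraries at 0 reads, where depth limits the value. The cause of the near absence of reads for the 3 untested genes was not tested.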

Other observations

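Elovl6 lies on chromosome 2, which carries the Brown Norway segments, and was listed at 1 read. Of its 10 nearest genes in the RefSeq order, 6 are in the table and 2, Enpep and Gar1, were tested. Enpep, an aminopeptidase of angiotensin, was lower in S2Ba than in SS on normal salt, with a log2 fold change of -1.65 and a limma adjusted p of 3.9e-05. On high salt the difference was -0.36 with an adjusted p of 0.465 in limma.

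Of 17 tested clock genes, limma called 7 as higher and 4 as lower in SS, 2 as lower in S2Ba, and 1 as higher and 3 as lower in S2Bb. Against 8.38%, 15.2% and 22.1% of all genes, the share was higher in SS and near it in S2Ba and S2Bb. In SS the count was 0 once components of the same genes entered as covariates, which follows from how those covariates are made. Dbp, an output of the clock, was 8.27 ± 2.83 (SD, n = 6) in SS on normal salt and 132 ± 83.4 (n = 5) on high salt. In S2Bb on high salt, Arntl was 4.44 in replicate 5 and 2.83 in replicate 6, the latter being the library with the 7 flagged fat genes. The fat index was 2.12 in replicate 5 and 3.58 in replicate 6. In the SS high salt libraries with Arntl of 2.43 to 11.4, the index was 2.31 to 2.79. A link between clock and fat genes was not tested.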
